A study of Mus musculus with 6 samples.

Results

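Heat shock proteins and their cochaperones were examined in skeletal muscle of 6 mice, 3 labelled transgenic (TG) and 3 labelled wild type (WT), hybridised to Affymetrix MoGene arrays. The title of the series names SOCS-3. Members were the genes whose platform symbol begins with Hspa, Hspb, Hsp90, Dnaja, Dnajb or Dnajc, together with Hsph1, Hspd1, Hspe1, Cryab and Bag1 to Bag5, without the endoplasmic reticulum stress genes Hspa5, Dnajb9 and Dnajc3. Of 35557 probe sets, only the 21789 with 1 symbol were used. The rule gave 75 genes, covered by 97 of these, out of 19938 genes. Probe sets with several symbols, left out here, also name Dnaja1, Dnajb14, Dnajb6, Hspa1a and Hspa8, and are the only ones naming Hspa1b. For a gene with several single-symbol probe sets, the one of highest average level was read. No filter on low values was used, so all 75 were tested. Hspa1b and Hsp90ab1 were not analysed here.

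The labels give each array its own subject, so an array stands for 1 mouse, and mice are numbered here in deposit order. They do not give the strain, age, sex or muscle of either group, the sequence carried by the transgene, or the promoter that drives it. Array medians lay between 5.98 and 6.04 on the log2 scale, and the 10 genes that define striated muscle, such as Ckm, Acta1 and Ttn, varied by a median of 0.10 between the highest and the lowest array. Socs3, named in the series title, stood at 7.12, 7.25 and 7.07 in TG mice and at 7.43, 7.41 and 7.37 in WT mice, and did not pass the test over all genes (limma, adjusted p = 0.66).

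Heat shock proteins are molecular chaperones that bind unfolded or stressed proteins and help them refold or be removed. HSP70 proteins do this by cycles of ATP hydrolysis, J-domain proteins (the DNAJA, DNAJB and DNAJC families) deliver clients and start the cycle, and nucleotide exchange factors such as the HSP110 and BAG proteins release the client. HSP90 matures kinases and steroid receptors, and small heat shock proteins hold unfolding proteins in solution. In muscle, where the strain of contraction can unfold parts of some sarcomere proteins, αB-crystallin, HSPB8 and BAG3 lie at the Z-disc. A subset of these genes is induced by heat, exercise or proteotoxic stress through the transcription factor HSF1, which binds heat shock elements made of alternating GAA and TTC units.

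The upstream sequences of 5 members are shown, chosen for their range over the 6 mice on the probe set read. They were taken among heat-inducible members whose sequence held the letters marked below. Hsp90aa1 and Hspb7, with ranges of 1.45 and 0.90, are therefore not shown. Hspa1a, Hspb1 and Dnaja1, of this inducible subset, varied by 1.95, 0.98 and 0.81. Hspd1 and Hspe1, which hold the same letters, varied by 0.22 and 0.11. The second probe sets of Dnaja1 and Hspd1 lay closer to each other, with ranges of 0.50 and 0.40. The sequences come from RefSeq on build GRCm38.p6, in which 60 of the 75 members matched a window of 250 bases before to 50 bases after a gene start. Capitals mark a pair of adjoining units, GAANNTTC or TTCNNGAA, each of which reads the same on both strands, and where pairs overlap the run of capitals is longer. Hspa1a, the stress-inducible HSP70, is shown at chr17:34972157-34972406 on the minus strand, Hspb1, the small heat shock protein HSP25, at chr5:135887669-135887918 on the plus strand, and Dnaja1, a cytosolic J-domain partner of HSP70, at chr4:40722218-40722467 on the plus strand. Hspd1 and Hspe1 encode the mitochondrial chaperonin and its lid and are transcribed away from each other, and the 215 bases between their starts are shown once, at chr1:55087933-55088147 on the plus strand.
Hspa1a: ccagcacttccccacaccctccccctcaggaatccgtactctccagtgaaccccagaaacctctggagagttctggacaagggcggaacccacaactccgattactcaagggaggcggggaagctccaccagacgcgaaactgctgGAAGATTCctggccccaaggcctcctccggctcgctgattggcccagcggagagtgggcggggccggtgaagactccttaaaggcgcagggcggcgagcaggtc
Hspb1: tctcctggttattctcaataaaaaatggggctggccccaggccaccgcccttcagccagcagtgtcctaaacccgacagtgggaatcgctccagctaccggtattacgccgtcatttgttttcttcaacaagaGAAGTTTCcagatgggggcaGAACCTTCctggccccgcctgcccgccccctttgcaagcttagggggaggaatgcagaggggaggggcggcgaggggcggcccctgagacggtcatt
Dnaja1: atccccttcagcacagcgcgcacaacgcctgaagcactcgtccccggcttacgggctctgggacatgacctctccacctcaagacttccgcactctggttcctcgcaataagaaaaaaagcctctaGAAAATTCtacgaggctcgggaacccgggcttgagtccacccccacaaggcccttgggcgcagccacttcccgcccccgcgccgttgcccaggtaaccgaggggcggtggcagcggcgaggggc
Hspd1 and Hspe1: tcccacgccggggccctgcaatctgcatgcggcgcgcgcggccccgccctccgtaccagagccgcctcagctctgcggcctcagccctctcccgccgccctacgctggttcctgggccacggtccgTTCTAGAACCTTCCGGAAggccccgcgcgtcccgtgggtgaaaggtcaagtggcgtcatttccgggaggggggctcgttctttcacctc

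In these windows the pair began 104 bases before the Hspa1a start and 117 and 97 bases before the Hspb1 start, and 124 bases before the Dnaja1 start. Between Hspd1 and Hspe1, 3 overlapping pairs formed a longer array of units. Of 12 heat-inducible members with a window, 10 held at least 1 pair (83.3%), against 6 of 48 other members (12.5%) and 4587 of 27025 genes with a window (17.0%). Arrays of 3 alternating units with 2 bases between each, on either strand, were found for 3 of the 12, namely Hspd1, Hspe1 and Hsph1, for 1 of the 48 other members, Dnajb6 (2.08%), and for 0.662% of all genes. Hspd1 and Hspe1 were both counted for the same stretch between them, here and among the 10 with a pair. The heat-inducible list was written from textbook HSF1 targets, so these counts describe the list and are no independent evidence of HSF1 binding. A match is a run of letters and not a measured binding site.

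The first comparison asked whether chaperone transcript levels differed between TG and WT muscle. None of the 75 members passed an adjusted p of 0.05 over all genes (limma; 1 gene of 19938 passed, 0.00502%), and the smallest adjusted p among members was 0.71. Without adjustment, 3 members had a p under 0.05, namely Dnajc17, Hspb9 and Dnajb1, against 6.75% of all genes. All 3 had lower values in TG (4.79% of all genes), and 0 had higher values (1.96% of all genes). All 3 were highest in WT mouse 3, which was the highest mouse for 25.3% of all genes and 21.3% of members. Each other mouse was highest for 13.5% to 16.6% of all genes. The ranges of the groups lay apart for 7 members, or 9.33%, against 12.3% of all genes. Of these 7, Hspa4l, Dnajc12, Dnajc16 and Hspe1 had every TG value above every WT value (4.52% of all genes), and Hspb9, Dnajb1 and Bag4 every TG value below (7.76% of all genes). These shares are at or below those of all genes in each direction except the 5.33% of members with TG above.

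Differences, TG minus WT on the log2 scale, were above 0 for 50 of 75 members (66.7%, against 43.8% of all genes), and their median was 0.049 against -0.016 for all genes. With all arrays set to a common median the counts were 56 of 75 members and 58.4% of all genes. With quantile normalization they were 46 of 75 members and 49.7%. Members had a higher median level than all genes, 8.64 against 6.42. Among genes above the median level, 47 of 64 members and 52.9% of genes were above 0. The median differences there were 0.0535 for members and 0.0061 for genes. The sizes were small, from -0.41 for Dnajc17 to 0.65 for Hspa1a, and the intervals of 72 members included 0. With 3 mice in each group, the interval for Hspa1a, the widest of the 75, ran from -0.37 to 1.67.

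**Figure D1:**
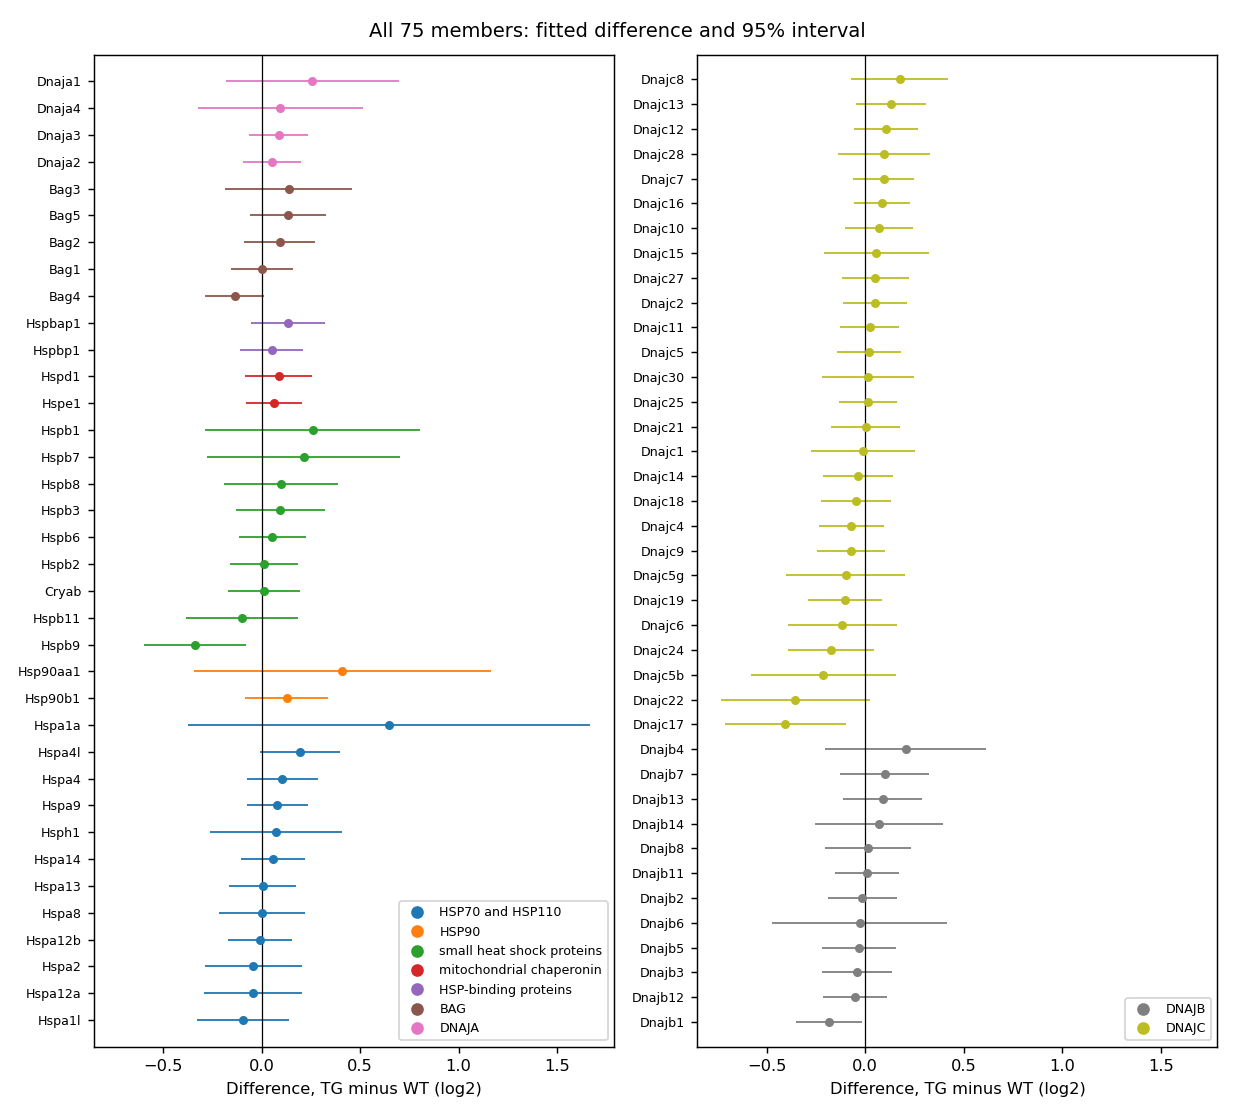
Fitted log2 difference, TG minus WT, for each of the 75 members (horizontal axis; points, with lines for the 95% interval), coloured by family, with 3 mice per group. The intervals of Hspa1a and Hsp90aa1 are the widest, and only those of Dnajc17, Hspb9 and Dnajb1 leave out 0, all with lower values in TG.

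The HSP70 family, counted together with the HSP110 genes Hspa4, Hspa4l and Hsph1, had 8 of 12 members above 0. Their median difference was 0.032 (limma, smallest adjusted p = 0.74). Hspa1a was measured at 8.09, 9.25 and 7.30 in TG mice 1, 2 and 3, and at 7.38, 7.40 and 7.91 in WT mice. TG mouse 2 was the highest of the 6 and TG mouse 3 the lowest, so the TG values spanned the whole WT range. TG mice averaged 8.21 ± 0.98 and WT mice 7.56 ± 0.30 (SD, n = 3 each), so the difference was 0.65 (SE 0.44; limma, adjusted p = 0.802). Without TG mouse 2 the difference was 0.13, and without TG mouse 3 it was 1.11 (unadjusted p = 0.0151, adjusted p = 0.571). TG mouse 2 stood 3.87-fold above TG mouse 3. Hspa1a and Hspa1b encode nearly the same protein, and the labels do not say whether the probe set also detects Hspa1b transcripts.

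Hspa8, the constitutive HSP70, lay at 13.24, 13.35 and 13.04 in TG and 13.16, 13.17 and 13.28 in WT. Its difference was 0.002 (SE 0.09, interval -0.22 to 0.22), a value whose sign turned with quantile normalization and with the mean of its probe sets, and 1 of its 3 probe sets lay below 0. The order of the 6 mice was nonetheless that of Hspa1a at both ends, with TG mouse 2 highest and TG mouse 3 lowest, over a range of 0.31. Hspa1l, the testis-enriched gene beside Hspa1a, differed by -0.09 (SE 0.10), and its highest value was in WT mouse 3 at 9.10.

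The HSP110 exchange factors gave small positive values. Hspa4l was at 7.26, 7.49 and 7.26 in TG and 7.19, 7.07 and 7.18 in WT, the 3 TG values above the 3 WT values. Its difference was 0.19 (SE 0.09; limma, adjusted p = 0.74). Hspa4 differed by 0.11 (SE 0.08), and Hsph1, which encodes the inducible HSP105, by 0.07 (SE 0.14). Hsph1 lay at 10.42 in TG mouse 2 and between 9.86 and 10.16 in the other 5 mice, and without TG mouse 2 its difference was -0.08. Hspa9, mitochondrial HSP70 or mortalin, differed by 0.08 (SE 0.07) with all 6 values between 12.49 and 12.67.

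Both measured HSP90 genes had values above 0. Hsp90aa1, the inducible cytosolic HSP90α that is also needed for myosin folding, was at 10.41, 11.18 and 9.74 in TG and 9.94, 9.89 and 10.28 in WT. As with Hspa1a, the highest and the lowest value both came from TG mice. TG mice averaged 10.44 ± 0.72 and WT mice 10.04 ± 0.21 (SD, n = 3 each), so the difference was 0.41 (SE 0.32; limma, adjusted p = 0.824), which was 0.04 without TG mouse 2 and 0.76 without TG mouse 3. Its 3 probe sets gave 0.39 to 0.41. Hsp90b1, the endoplasmic reticulum paralogue GRP94, was at 11.01, 11.10 and 10.82 in TG and 10.83, 10.78 and 10.94 in WT, a difference of 0.13 (SE 0.09).

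**Figure D2:**
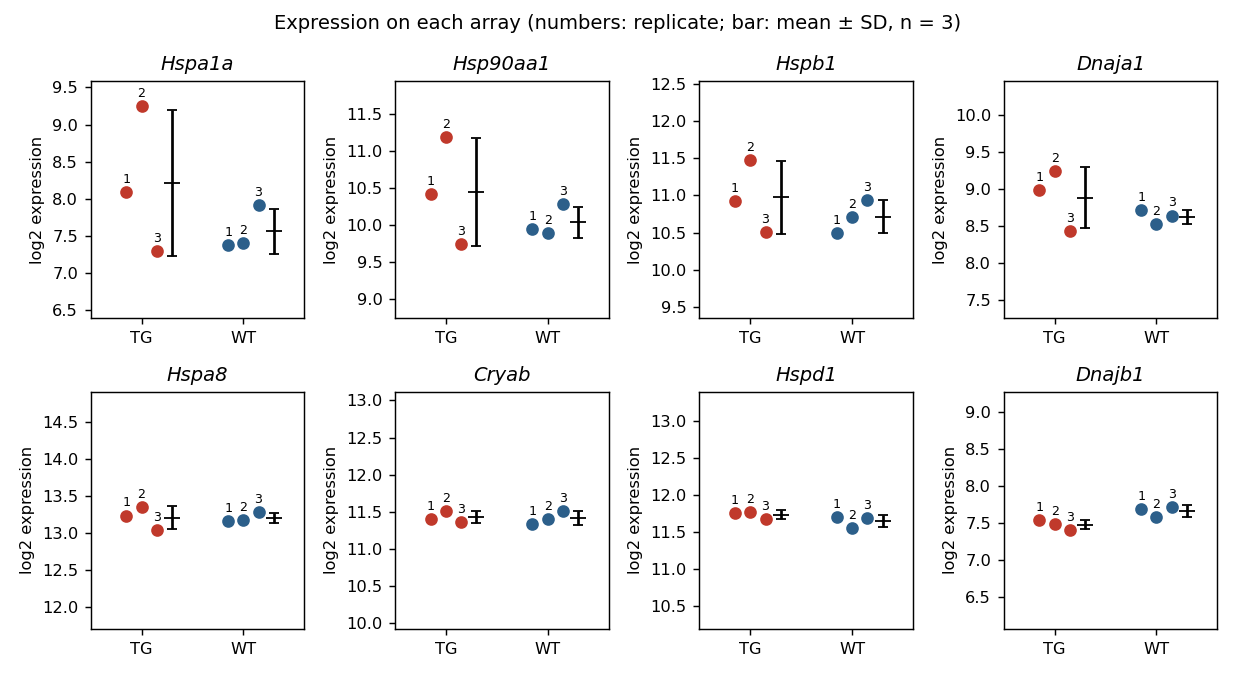
Log2 expression of 8 members on each of the 6 arrays (points, numbered by replicate), with the mean ± SD of each group (n = 3) beside them; every panel spans the same log2 range. On the probe sets read, Hspa1a, Hsp90aa1, Hspb1 and Dnaja1 spread widely among the TG mice with replicate 2 on top. The values of Cryab and of Hspd1 each lie within about 0.2 on all arrays. The second probe set of Dnaja1, not drawn, had an SD of 0.09 in TG and 0.22 in WT. That of Hspd1, also not drawn, ranged over 0.40.

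Of the 9 small heat shock protein genes, 7 had differences above 0, with a median of 0.054 (smallest adjusted p = 0.71). Hspb1 was at 10.93, 11.48 and 10.51 in TG and 10.50, 10.70 and 10.94 in WT. TG mouse 2 was again the highest, and TG mouse 3 and WT mouse 1 were the lowest. Its difference was 0.26 (SE 0.23; limma, adjusted p = 0.85), falling to 0.005 without TG mouse 2, and its other probe set gave 0.25. Cryab, which encodes αB-crystallin, was at 11.40, 11.51 and 11.36 in TG and 11.33, 11.40 and 11.51 in WT, a difference of 0.01 (SE 0.08, interval -0.17 to 0.19). Hspb6, or HSP20, differed by 0.05 (SE 0.07), Hspb2, the partner gene beside Cryab, by 0.01 (SE 0.07), and Hspb3 by 0.09 (SE 0.10).

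Hspb8, which works with BAG3 in chaperone-assisted autophagy of Z-disc proteins, was at 12.07, 12.33 and 11.87 in TG and 11.90, 11.96 and 12.12 in WT. The difference was 0.10 (SE 0.12) and -0.02 without TG mouse 2. Hspb7, the cardiovascular heat shock protein that binds filamin C, was at 10.08, 10.45 and 10.05 in TG, and in WT it ran from 9.55 in mouse 1 to 10.40 in mouse 3. Its values spread more within WT than within TG, and its difference of 0.21 (SE 0.21) was -0.003 without WT mouse 1. Hspb9, a testis-expressed small heat shock protein, had lower values in TG, with 5.90, 6.05 and 5.94 against 6.26, 6.12 and 6.53 in WT. The groups did not overlap, and the difference was -0.34 (SE 0.11; limma, adjusted p = 0.71). Hspb11, an intraflagellar transport protein placed in the family by name, differed by -0.10 (SE 0.12).

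The mitochondrial chaperonin genes differed little. Hspd1 (HSP60) was at 11.76, 11.77 and 11.67 in TG and 11.70, 11.55 and 11.69 in WT, a difference of 0.09 (SE 0.07), with 0.12 from its second probe set. That second probe set spread over 0.40, with TG mouse 1 highest and TG mouse 3 lowest. Hspe1 (HSP10) was at 11.58, 11.55 and 11.51 in TG and 11.49, 11.47 and 11.49 in WT, a difference of 0.06 (SE 0.06) with no overlap between the groups. The 10 members that act in mitochondria, which include these 2, Hspa9 and the J-domain genes Dnaja3, Dnajc15 and Dnajc19, had 8 differences above 0, a median of 0.060 and 0 calls. On the probe sets read, their widest range over the 6 mice was that of Dnajc15, at 0.40.

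All 4 DNAJA genes were above 0. Dnaja1 was at 8.98, 9.24 and 8.43 in TG and 8.71, 8.52 and 8.64 in WT. On this probe set, TG mice 1 and 2 lay above every WT mouse and TG mouse 3 below every WT mouse. The difference was 0.26 (SE 0.19; limma, adjusted p = 0.813), 0.08 without TG mouse 2 and 0.48 without TG mouse 3 (unadjusted p = 0.00322, adjusted p = 0.464). The second probe set of Dnaja1 gave 0.185 with another order of mice. There TG mouse 1, at 7.54, lay below WT mouse 1, at 7.61. TG mouse 3, at 7.48, lay above WT mice 2 and 3, at 7.16 and 7.35. Dnaja4, a heat-inducible relative, was at 10.37, 10.68 and 10.08 in TG and 10.06, 10.21 and 10.58 in WT, a difference of 0.10 (SE 0.18). Dnaja2 and Dnaja3, the cytosolic and mitochondrial members of the family that are not in the inducible list, differed by 0.05 (SE 0.06) and 0.09 (SE 0.07).

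The DNAJB genes were split, 6 above and 6 below 0, with a median of -0.003. Dnajb1, or HSP40, the main J-domain partner of inducible HSP70, was at 7.54, 7.49 and 7.41 in TG and 7.70, 7.58 and 7.72 in WT. Its 3 TG values lay below its 3 WT values, and the difference was -0.18 (SE 0.07; limma, adjusted p = 0.738). It was the single one of 15 inducible members with a difference below 0, and TG mouse 2 was not its highest mouse. Dnajb4, another inducible cytosolic member, was at 10.89, 11.20 and 10.48 in TG and 10.49, 10.67 and 10.79 in WT, a difference of 0.21 (SE 0.18). Dnajb6, mutated in a limb-girdle muscular dystrophy, was at 6.87, 6.18 and 6.41 in TG and 6.62, 6.23 and 6.69 in WT. Its difference of -0.03 (SE 0.19) turned to 0.01 with arrays set to a common median and to 0.001 with quantile normalization.

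The DNAJC family, which uses the J domain in tasks from splicing to vesicle traffic, had 15 of 27 members above 0 and a median of 0.013 (smallest adjusted p = 0.71). Dnajc17, a spliceosome-associated member, had the lowest difference of the 75, with 8.12, 7.85 and 7.76 in TG and 8.33, 8.10 and 8.51 in WT. TG mouse 1 overlapped WT mouse 2, and the difference was -0.41 (SE 0.13; limma, adjusted p = 0.71). Dnajc22 was at 4.97, 5.03 and 5.02 in TG and 5.03, 5.73 and 5.32 in WT, a difference of -0.35 (SE 0.16) that was -0.17 without WT mouse 2. Dnajc24, of the diphthamide pathway, differed by -0.17, Dnajc5b, a cysteine string protein, by -0.21, and Dnajc19, of the mitochondrial import motor, by -0.10. Dnajc24 was at -0.09 without WT mouse 1, Dnajc5b at -0.03 without TG mouse 1 and Dnajc19 at -0.04 without TG mouse 2. Among those above 0, Dnajc8, another spliceosome-associated member, differed by 0.17 (SE 0.11), Dnajc13, an endosomal protein, by 0.13 (SE 0.08), Dnajc12 by 0.11 and Dnajc16 by 0.09. Of the 15 Dnajc13 probe sets, 14 were above 0.

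Of the BAG cochaperones, 4 of 5 were above 0, with a median of 0.091 (smallest adjusted p = 0.749). Bag3 was at 10.48, 10.73 and 10.38 in TG and 10.15, 10.42 and 10.61 in WT, a difference of 0.14 (SE 0.14) with the groups overlapping, which was 0.01 without WT mouse 1 and 0.04 without TG mouse 2. Bag5 differed by 0.14 (SE 0.08) and had its highest value, 8.31, in TG mouse 2. Bag4, the silencer of death domains, was at 7.35, 7.29 and 7.38 in TG and 7.44, 7.53 and 7.46 in WT, and its difference was -0.14 (SE 0.07) without overlap. Bag1 differed by 0.001 (SE 0.07), a sign that turned with quantile normalization and array weights. Hspbap1, an HSPB1-associated protein, differed by 0.13 (SE 0.08), and Hspbp1, an HSP70 exchange factor, by 0.05 (SE 0.07). Dnajb7 lay between 3.13 and 3.48 on all arrays, with a difference of 0.10 (SE 0.10).

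The inducible members varied more between mice than the other members did. Their list was chosen with earlier results of these data known, so this contrast is a description and not a test. The list of 17 textbook HSF1 targets had 15 measured members, of which 14 had a difference above 0 and 0 passed, with a median difference of 0.098. That median was 0.033 without TG mouse 2, 0.21 without TG mouse 3 and 0.21 without WT mouse 3. In 12 of the 15, TG mouse 2 was the highest of the 6 mice, against 13 of the 60 other members and 15.4% of all genes. On the probe sets read, the exceptions were Dnajb1 and Cryab, highest in WT mouse 3, and Hspe1, highest in TG mouse 1. For Cryab, WT mouse 3 led TG mouse 2 by 0.0014. The second probe set of Hspe1 was highest in TG mouse 2, and that of Hspd1 in TG mouse 1. The range over the 6 mice had a median of 0.56 in the inducible list, 0.24 in the other 60 members and 0.31 over all genes.

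Centred on each gene's own mean, the 15 inducible members averaged 0.07, 0.38 and -0.21 in TG mice 1, 2 and 3, and -0.16, -0.13 and 0.06 in WT mice 1, 2 and 3. The 60 other members averaged between -0.03 and 0.04 on every array. TG mouse 2 thus stood high in the average of the inducible members and not in that of the other 60, and TG mouse 3 stood lowest in the former. Over the 6 arrays the profile of Hsp90aa1 correlated with that of Hspa1a at r = 0.996, Hspb1 at 0.978, Hspb8 at 0.970 and Dnajb4 at 0.964, as a description of 6 points that share 1 high array. Of the 14 other inducible members, 10 had r over 0.8, as did Bag5, Hsp90b1, Hspa4 and Dnajc11 of the 60 others and 3.23% of all genes. Dnajb1 was at -0.19 and Hspa2, the testis HSP70, at -0.94.

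**Figure D3:**
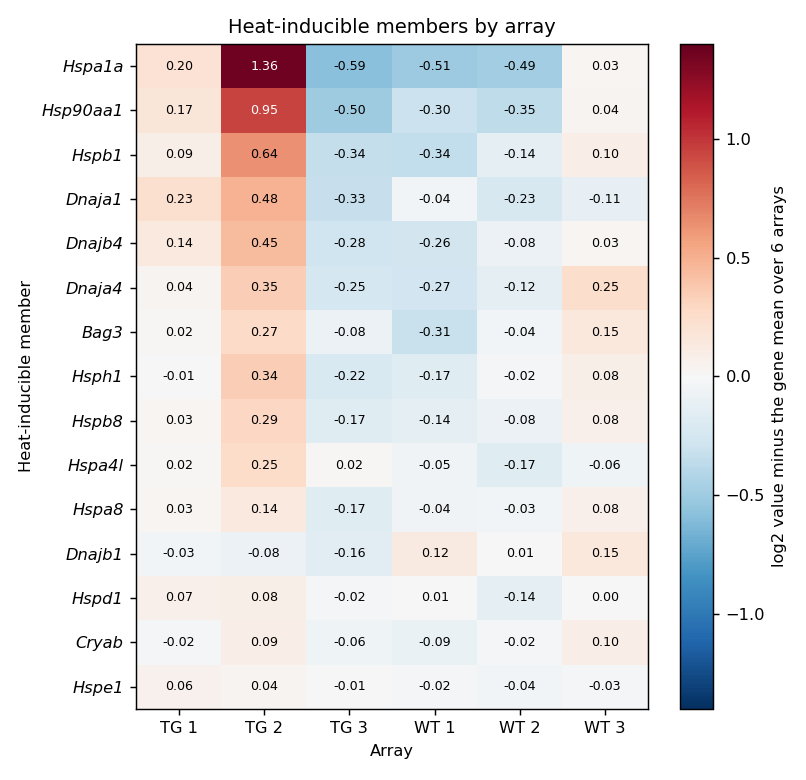
Log2 value minus the gene's mean over the 6 arrays (colour and printed number) for the 15 measured heat-inducible members (rows, ordered by range) on each array (columns). TG 2 is the highest array in 12 of 15 rows, led by Hspa1a and Hsp90aa1, and TG 3 is negative in 14 rows.

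Transcripts of other cell types and of stimulation were set beside this pattern, since in whole tissue fewer cells of a type and less RNA per cell cannot be told apart. Of the 13 hepatocyte genes measured, such as Alb and Apoa1, 11 were highest in TG mouse 2 and 12 lowest in TG mouse 3. Their summed log2 values ran from 76.0 to 103.5 in TG and from 91.3 to 98.2 in WT. Alb was at 8.70, 10.67 and 6.29 in TG and 8.99, 9.48 and 10.19 in WT. TG mice 2 and 3 were thus the extremes of both the inducible chaperones and the hepatocyte genes, while TG mouse 1 lay above WT mice 1 and 2 for the former and below them for the latter. The part of hepatocyte transcripts in the chaperone values was not tested.

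Macrophage genes had summed values of 87.0 to 91.2 in TG and 85.3 to 89.3 in WT, with 3 of 13 highest in TG mouse 2. Adipocyte genes had 46.8 to 48.0 and 45.6 to 46.2, with 5 of 7 highest there. Both sums were highest in TG mouse 2, with centred means of 0.206 and 0.205. The lowest sums were in WT mouse 3 for macrophage genes and WT mouse 2 for adipocyte genes. Immediate early genes, which respond within minutes to stimulation or handling, were highest in WT mouse 2 for 14 of 20 and in TG mouse 2 for 3. Their summed values were 157.6 to 162.8 in TG and 159.9 to 171.6 in WT. Bone and osteoclast genes were highest in TG mouse 1 for 8 of 9. Centred on their own means, slow fibre genes averaged -0.13 in TG mouse 2 and fast fibre genes -0.04, and the striated muscle genes averaged between -0.01 and 0.01 on all arrays. The part of these transcripts in the chaperone values was not tested either.

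**Figure D4:**
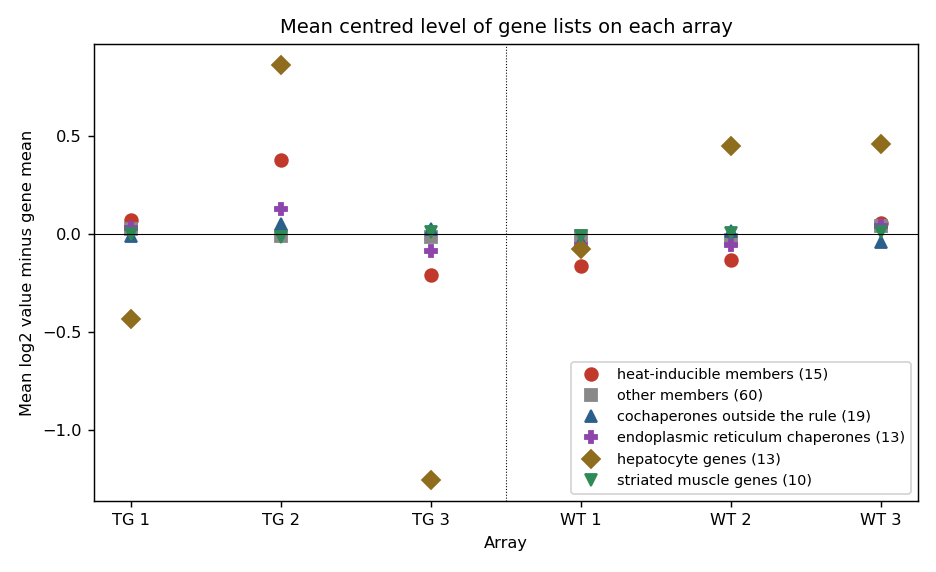
Mean over each list of the log2 value minus the gene mean (vertical axis) on each array (horizontal axis; the dotted line parts TG from WT), with the number of genes in brackets. The inducible members peak at 0.38 in TG 2, hepatocyte genes run from -1.25 in TG 3 to 0.86 in TG 2, the endoplasmic reticulum chaperones lie at 0.13 in TG 2 and -0.09 in TG 3, and the other members, outside cochaperones and striated muscle genes stay near 0.

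The wider chaperone network was read from lists of genes that the rule left out, none of which held a gene past the threshold. Of 6 heat shock factors and regulators listed, 5 were measured, and 2 of these were above 0. Hsf1 itself was the one without a value among the genes tested. Hsf2 was at 9.41, 9.41 and 9.31 in TG and 9.17, 9.26 and 9.33 in WT, a difference of 0.12 (SE 0.07). Hsf5, a germline relative, was at -0.27 (SE 0.11) with no overlap, and Hsf4 at -0.07.

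Of 19 HSP70 and HSP90 cochaperones outside the rule, 11 were above 0, with a median of 0.019. Ahsa2, a homologue of the HSP90 ATPase activator, was at 8.21, 8.12 and 7.92 in TG and 7.81, 7.87 and 7.78 in WT. Its groups did not overlap, and its difference was 0.26 (SE 0.09; limma, adjusted p = 0.71). Ppid, the cyclophilin that binds HSP90, differed by 0.13, and Chordc1 by 0.14. This list averaged 0.05 in TG mouse 2, where the inducible members averaged 0.38.

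The cytosolic chaperonin TRiC and its partner prefoldin had 11 of 15 subunits above 0 and a median of 0.043, with Vbp1 at 0.16, Cct3 at 0.09 and Tcp1 at 0.08. TG mouse 2 held the highest value of 7 of the 15 subunits. Mitochondrial chaperones and proteases outside the rule had 10 of 12 above 0 and a median of 0.063. Clpx, of the ClpXP protease, differed by 0.15 (SE 0.07) and Trap1, mitochondrial HSP90, by 0.14 (SE 0.07), each without overlap, and Htra2 by 0.15. Endoplasmic reticulum chaperones, including the 3 genes the rule left out, had 9 of 13 above 0 and a median of 0.024. Dnajb9 was at 10.13, 10.29 and 10.07 in TG and 9.85, 10.02 and 9.89 in WT, a difference of 0.25 (SE 0.09; limma, adjusted p = 0.713) without overlap, with Pdia4 at 0.22 and Canx at 0.08. Of these 13 genes, 6 were highest in TG mouse 2 and 7 lowest in TG mouse 3, and their centred mean was 0.13 in the former and -0.09 in the latter, the same 2 extreme arrays as for the inducible members.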

How the data were processed

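Total RNA of frozen muscle was isolated with Trizol and RNeasy columns and biotin-labelled, per the labels' protocols. The table the authors deposited holds log2 expression for 35557 probe sets on 6 arrays, from 1.41 to 15.1. That the scale is log2 was inferred from this range. How values were summarized or normalized was not stated in the labels or the file. Values were used as deposited, and 0 columns were left out. Symbols came from the platform annotation: 21789 probe sets had 1 symbol, 1621 several and 12147 none. Only the probe sets with 1 symbol were used. Of the members, 7 had several probe sets.

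Groups came from the labels, and replicate numbers are deposit order. The 2 groups were compared in R 4.3.3 with limma 3.58.1 (lmFit, eBayes; two-sided), with Benjamini-Hochberg adjustment over 19938 genes and a threshold of 0.05. The code was tested on simulated data. Intervals are at 95%. Precision is limited by 3 arrays per group. P-values set each group difference against the spread between mice within groups, which limma moderates over all genes.

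The members and lists were chosen with earlier results of these data known. Named members were the 8 of smallest p in each direction, 20 fixed role anchors, the highest and lowest level, and genes with probe sets of both signs, and further members were named by family after their values were seen. Up to 3 genes of smallest p were named per outside list. Heat shock element letters were searched in RefSeq windows of GRCm38.p6. Figures used matplotlib 3.10.9. The alternatives changed the variance model (trend, robust), weighted arrays, tested the brighter genes, all probe sets or their means, rescaled arrays (quantiles, common median), used a fold rule or left out each array. Their use on the count above 0 and on the inducible median was added after seeing the data.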

Additional observations from a re-analysis of the deposited data

How the results depend on the processing

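No paired analysis was possible because the labels give no replicate numbers shared between the groups. No member passed the threshold under any of the settings, including the rule of an unadjusted p under 0.01 with a 1.5-fold change, and the smallest adjusted p of the 33 named members was 0.464. The count over all genes was 1 as reported, 7 with an intensity trend, 2 among genes above the median level, 31 under the fold rule, and 0 with robust moderation, with a common array median or with any array left out. The members' median difference was 0.089 with a common array median, against a median of 0.024 for all genes, and 0.021 to 0.049 with 1 array left out. The count of members above 0 was 43 to 54 of 75 with 1 array left out, against 41.8% to 47.8% of all genes. Of 260 values of named members with all arrays kept, 254 kept their direction and side. The other 6 were Hspa8 at -0.0026 with the mean of the probe sets and -0.0057 with quantile normalization, Bag1 at -0.001 with array weights and -0.0058 with quantile normalization, and Dnajb6 at 0.0013 with quantile normalization and 0.012 with a common median. With 1 array left out, 27 of the 33 named members turned sign or moved by over 1.5 times, all but Dnajc13, Dnajc16, Dnajc17, Dnajb1, Bag4 and Hspe1, and 7 turned sign in 15 of 198 values, with ranges of -0.0688 to 0.0867 for Hspa8, -0.0774 to 0.202 for Hsph1, -0.0031 to 0.421 for Hspb7, -0.0222 to 0.210 for Hspb8, -0.0344 to 0.0607 for Cryab, -0.219 to 0.126 for Dnajb6 and -0.0378 to 0.0233 for Bag1. The inducible median was 0.13 with array weights and 0.14 with a common median, and the cause was not tested. Signal over background could not be assessed from the deposited values.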
